A study of Homo sapiens with 22 samples.

Results

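The subject here is a set of 10 contractile and smooth muscle genes, taken by symbol from the deposited gene count table: ACTA2, ACTG2, TAGLN, CNN1, CNN2, MYL9, TPM1, TPM2, CALD1 and MYH11. All 10 symbols were present among the 35237 rows of the table. The 22 RNA-seq libraries came from GIMEN and SK-N-AS, a pair of established lines of human neuroblastoma, labelled as mesenchymal. Untreated SK-N-AS (n = 4) was grown in DMEM with 10% serum. SK-N-AS at S1D4 (n = 4) had received 5 µM PP121, an inhibitor of tyrosine and phosphoinositide kinases, in DMEM with 1% serum for 4 days. S2D4 and S2D30 (n = 4 each) were S1D4 cells carried on with 5 µM PP121 and 100 nM bufalin, a cardiac glycoside that blocks the sodium pump, for 4 or 30 days in Neurobasal medium with B27 supplement. That medium held no serum, no penicillin-streptomycin and 0.25X iGlutaMAX. All other groups had 1% penicillin-streptomycin and 1X iGlutaMAX. Untreated GIMEN (n = 3) was grown in RPMI with 10% serum, and GIMEN at D30 (n = 3) had 30 days of 2.5 µM PP121 and 10 nM bufalin in RPMI with 1% serum. S2D4 and S2D30 differ in the labels by the days of the second stage alone. In every other comparison within a line, drug, serum and time changed together. The medium and its supplements also changed wherever S2D4 or S2D30 was compared with S1D4 or untreated cells. The effects of these changes cannot be told apart. The labels do not say whether libraries of a group came from separate cultures, so the p-values measure the spread between these libraries, which may be technical.

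These genes encode the parts of an actin filament that contracts. ACTA2 and ACTG2 are the smooth muscle actins, MYH11 is the smooth muscle myosin heavy chain and MYL9 is a regulatory myosin light chain. TPM1 and TPM2 encode tropomyosins that lie along the filament, CALD1 and the calponins CNN1 and CNN2 bind actin and restrain or tune myosin, and TAGLN (transgelin) cross-links actin. Many are textbook targets of serum response factor, SRF, which binds a short promoter element called the CArG box together with a cofactor of the myocardin family. In non-muscle cells the same genes mark stress-fibre-rich, mesenchymal or myofibroblast states.

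Total counts per library were between 16456484 and 37506800. Values are given as CPM, a gene's counts divided by the library total and multiplied by 1e+06, scaled once over all 22 libraries. A gene was taken to be at the floor in a group when no library had more than 3 counts, which corresponds to 0.0742 to 0.193 CPM here, for counting error only. The summed CPM of 8 mesenchymal neuroblastoma genes was 37870 to 39460 in untreated GIMEN and 864 to 1378 in untreated SK-N-AS. FN1 made up most of the GIMEN sum, at a mean of 31490 CPM, and had 60.3 CPM in untreated SK-N-AS. VIM made up most of the SK-N-AS sum, at 937 CPM, and had 5852 CPM in untreated GIMEN. Each of the 8 was higher in untreated GIMEN at adjusted p under 0.05, as were 34.4% of the 15101 genes tested. The sum of 8 adrenergic neuroblastoma genes was 452 to 475 in untreated GIMEN and 1651 to 1879 in untreated SK-N-AS. The mesenchymal label of SK-N-AS therefore stood beside adrenergic markers.

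The promoters of 3 genes are shown, picked because they held a CArG box or near matches to it. The RefSeq promoter table (GRCh38.p14, 250 bases before to 50 after a start) held 12 promoters for 7 of the 10 genes. It held none for TAGLN, MYL9 and MYH11. Capitals mark a CArG box, which is CC, then 6 bases that are each A or T, then GG, and reads the same way on both strands. In ACTA2, of whose 2 promoters in the table the downstream one is shown, capitals mark near matches with 1 G or C among the 6 central bases.
ACTG2, chr2:73892758-73893057, plus strand: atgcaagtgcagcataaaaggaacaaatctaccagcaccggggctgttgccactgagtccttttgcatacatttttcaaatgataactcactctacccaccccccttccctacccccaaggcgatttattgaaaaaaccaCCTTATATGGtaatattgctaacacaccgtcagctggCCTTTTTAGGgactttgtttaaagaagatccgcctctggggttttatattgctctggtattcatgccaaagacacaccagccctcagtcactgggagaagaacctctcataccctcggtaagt
CNN2, chr19:1026358-1026657, plus strand: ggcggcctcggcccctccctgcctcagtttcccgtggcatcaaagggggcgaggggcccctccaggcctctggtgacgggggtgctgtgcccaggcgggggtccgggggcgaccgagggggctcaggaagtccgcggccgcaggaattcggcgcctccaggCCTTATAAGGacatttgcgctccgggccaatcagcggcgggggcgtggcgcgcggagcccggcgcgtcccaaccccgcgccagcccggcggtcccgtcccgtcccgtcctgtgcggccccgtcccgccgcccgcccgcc
ACTA2, chr10:88952724-88953023, minus strand: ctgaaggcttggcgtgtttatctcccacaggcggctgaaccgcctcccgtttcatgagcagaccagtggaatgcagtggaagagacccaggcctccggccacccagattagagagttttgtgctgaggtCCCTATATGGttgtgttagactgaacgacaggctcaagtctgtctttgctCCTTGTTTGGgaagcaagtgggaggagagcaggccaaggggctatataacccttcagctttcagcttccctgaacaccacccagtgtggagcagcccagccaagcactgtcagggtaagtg
The boxes of ACTG2 began 110 and 73 bases before the start and that of CNN2 began 89 bases before it. The near matches of ACTA2 began 121 and 71 bases before the start, and 1 of the 4 CALD1 promoters held a near match 26 bases before its start. Such a box was found in 2 of the 12 promoters of these genes and in 1.29% of the 35116 promoters in the table, and a near match in 2 of 12 and in 6.94%. The genes were picked as contractile genes linked to SRF, so these shares cannot serve as a test of that link. These windows for CNN1, TPM1 and TPM2 held neither. A match of letters is a description of the sequence and does not show binding.

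As a sum, the contractile set was high in untreated GIMEN and low in the other 5 groups. CALD1, TPM1 and CNN2 made up most of the untreated GIMEN sum, at means of 759, 468 and 295 CPM. TPM2 and MYH11 were not highest in that group, and MYL9 was at the floor in every group. Summed over the 10 genes, CPM was 1805 to 1864 in the 3 untreated GIMEN libraries, 285 to 315 after 30 days of treatment, 253 to 353 in untreated SK-N-AS, 196 to 230 at S1D4, 132 to 150 at S2D4 and 137 to 144 at S2D30. In bulk RNA, fewer cells with a transcript and less transcript per cell cannot be told apart. Counted per length (CPM per kilobase of median coding transcript), TPM1, CALD1, CNN2 and TPM2 were the 4 highest genes in every group except untreated GIMEN, where TAGLN at 137 ± 7.42 took the place of TPM2 at 45.6 ± 3.23 (SD, n = 3). TPM1 led in each group on this scale, at 426 ± 6.83 in untreated GIMEN (SD, n = 3) and 106.3 ± 31.7 in untreated SK-N-AS (SD, n = 4), but ranked 3 or 4 when lengths were taken as all exon bases of a gene.

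**Figure D1:**
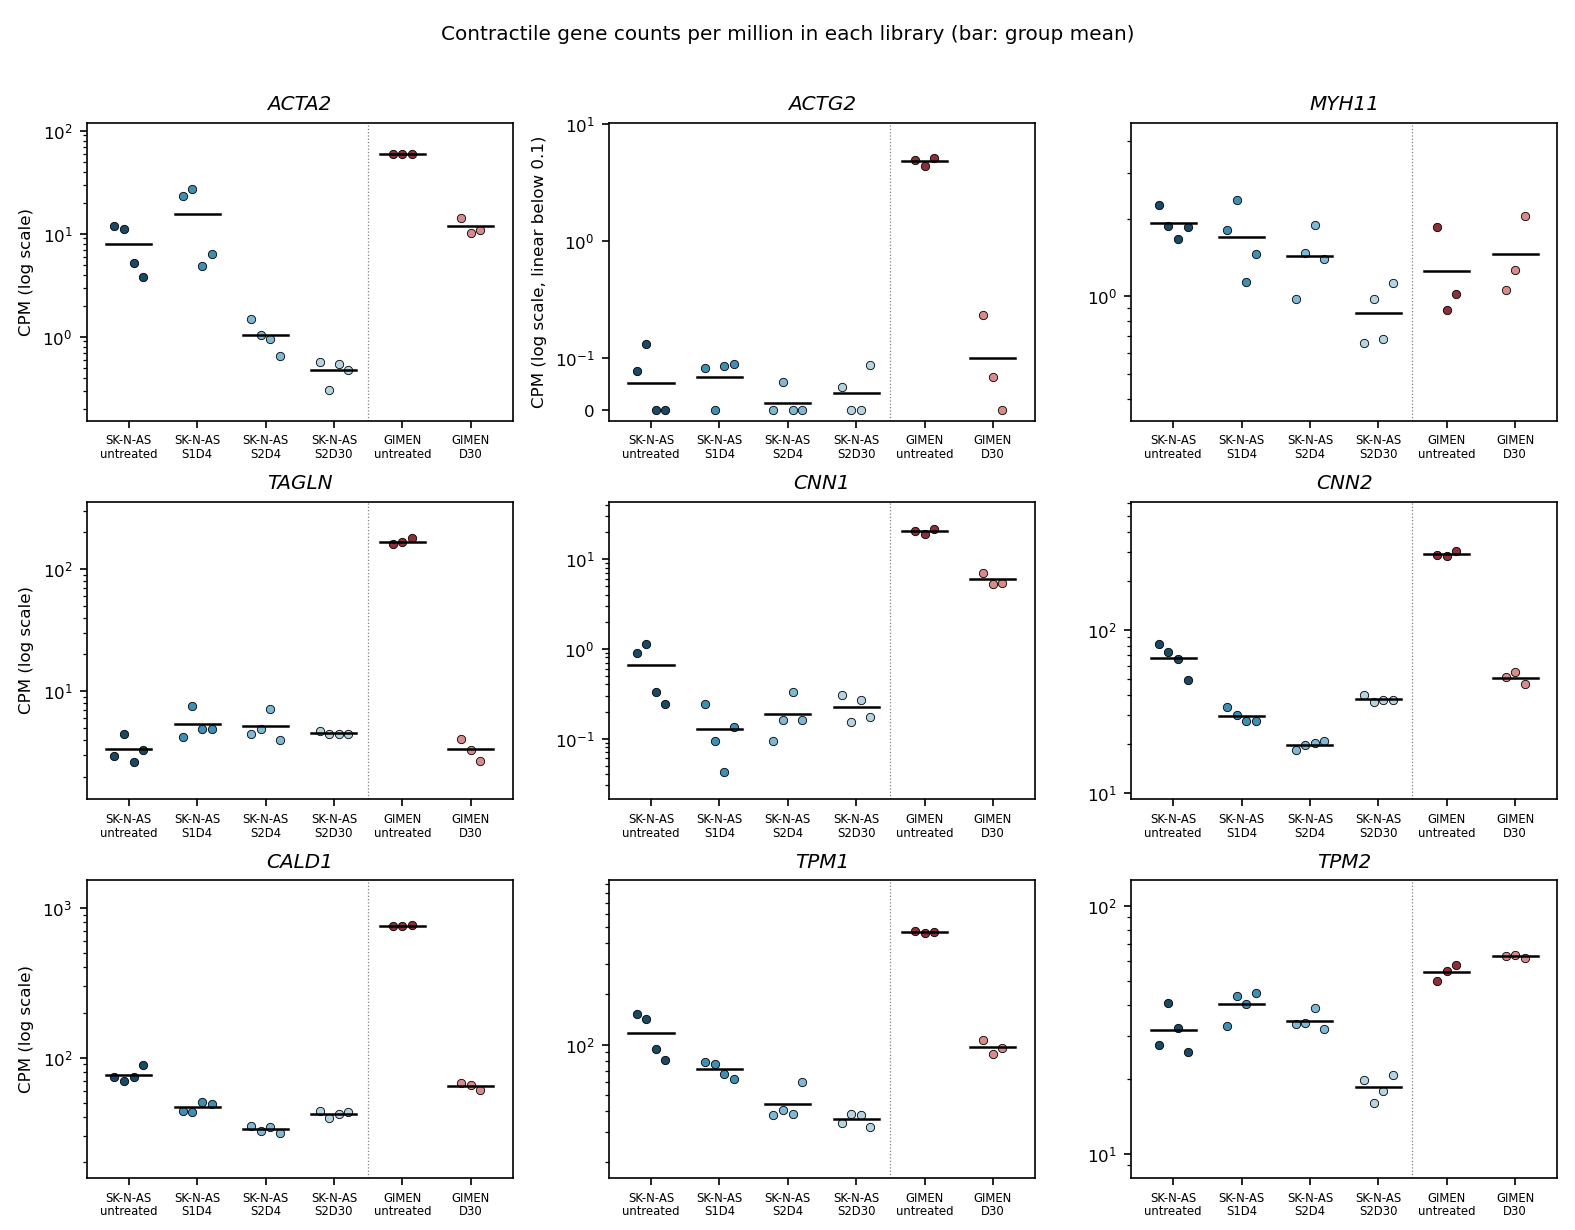
CPM of 9 contractile genes in each of the 22 libraries, on a log axis (linear below 0.1 for ACTG2); points are libraries in replicate order, bars are group means and the dotted line separates SK-N-AS from GIMEN. Untreated GIMEN was the highest group for 7 of the 9 genes, all but TPM2 and MYH11, and ACTA2 in untreated and S1D4 SK-N-AS split into a higher pair (replicates 1 and 2) and a lower pair (replicates 3 and 4).

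ACTA2, the smooth muscle alpha-actin that marks myofibroblasts, fell in SK-N-AS in the groups with bufalin and the second medium. Its CPM was 11.9, 11.2, 5.15 and 3.79 in the 4 untreated libraries and 23.3, 26.98, 4.85 and 6.34 at S1D4. It was 1.49, 1.03, 0.941 and 0.648 at S2D4 and 0.570, 0.307, 0.544 and 0.478 at S2D30, where 6 to 13 reads were counted. Every S2D4 and S2D30 library was below every untreated and S1D4 library, whereas S1D4 and untreated overlapped. The log2 fold change against untreated was 0.91 at S1D4 (SE 0.47, adjusted p = 0.141), -3.01 at S2D4 (SE 0.56, adjusted p = 1.68e-04) and -4.09 at S2D30 (SE 0.61, adjusted p = 1.43e-05). The last is a 17.0-fold lower level. From S1D4 to S2D4 the log2 change was -3.93 (SE 0.57, adjusted p = 2.12e-05). From S2D4 to S2D30 it was -1.08 (SE 0.68, adjusted p = 0.196), although the libraries of these groups did not overlap.

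ACTA2 split by replicate number in both untreated and S1D4 cells. Replicates 1 and 2 averaged 11.5 CPM untreated and 25.2 at S1D4, and replicates 3 and 4 averaged 4.47 and 5.596. Libraries of the same number were not treated as pairs, so no ratio is taken between these means. This split was noticed in the values, and the labels give no batch for it. CNN1 and TPM1 were also higher in untreated replicates 1 and 2 than in 3 and 4, with means of 1.01 against 0.289 CPM and 146.4 against 87.3 CPM. At S1D4 these means were 0.168 and 0.0876 CPM for CNN1, from 1 to 6 counts per library, and 77.8 and 64.4 CPM for TPM1. Over omissions of single libraries the S1D4 change of ACTA2 ran from 0.50 without S1D4 replicate 2 (adjusted p = 0.454) to 1.21 without S1D4 replicate 3 (adjusted p = 0.0418). In a model of the 8 compared libraries alone, S2D30 against S2D4 had adjusted p = 0.0221.

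In GIMEN, ACTA2 had 59.2, 59.6 and 59.3 CPM untreated and 14.3, 10.1 and 10.98 at D30. The groups did not overlap, and the log2 fold change was -2.35 (SE 0.11, adjusted p = 5.83e-09), a 5.11-fold lower level. In the annotation used for lengths, 30.1% of ACTA2 exon bases lie opposite other genes, ACTA2-AS1 and FAS, and the use of strand in counting is not given in the sources used here. FAS itself had 0.810 to 10.1 CPM as a group mean.

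ACTG2, the smooth muscle gamma-actin of gut and bladder, was counted well above the floor in untreated GIMEN alone. It had 96, 89 and 90 counts there, 4.80 ± 0.38 CPM (SD, n = 3), and 4, 1 and 0 counts at D30. Summed over libraries this is 275 against 5 counts, a 46.3-fold lower level with a 95% exact interval of 19.6 to 144 for counting error. The gene passed the filter on low counts through untreated GIMEN alone, so a call in the model was set by that choice. The fitted log2 change of -5.47 became -6.96 without D30 replicate 1 and -4.95 without D30 replicate 3. In SK-N-AS it had 0 to 3 counts in each of the 16 libraries. Against 3 counts per SK-N-AS library, untreated GIMEN was at least 43.7-fold higher.

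MYH11, the myosin heavy chain of differentiated smooth muscle, was low in both lines. Its group means were 0.860 to 1.92 CPM, from 15 to 91 counts per library, so counting error is large. In SK-N-AS it was 2.25, 1.88, 1.67 and 1.86 CPM untreated, 1.81, 2.35, 1.14 and 1.46 at S1D4, 0.978, 1.47, 1.88 and 1.39 at S2D4, and 0.658, 0.973, 0.680 and 1.13 at S2D30. All S2D30 libraries were below all untreated ones, at -1.19 on the log2 scale (SE 0.28, adjusted p = 0.00117). The change from S2D4 to S2D30 was -0.73 (SE 0.29, adjusted p = 0.0419), with overlapping libraries, and adjusted p was 0.0543 to 0.134 without any 1 of 6 of these 8 libraries (S2D4 replicates 2, 3 and 4, and S2D30 replicates 1, 2 and 3). In GIMEN it was 1.86, 0.884 and 1.02 CPM untreated and 1.06, 1.27 and 2.06 at D30, which overlapped (log2 fold change 0.19, 95% interval -0.57 to 0.95, adjusted p = 0.675). Of its exon bases, 8.05% lie opposite other genes, among them NDE1, which had group means of 16.8 to 56.8 CPM.

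MYL9 had 1 count in all, in untreated GIMEN replicate 2, and 0 in the other 21 libraries. It is therefore listed at or under the floor everywhere and was not tested. In the annotation used here its exons overlap no other gene and share no stretch of 75 bases with one, and the rules of counting are not given in the sources used here, so whether the value reflects the cells or the counting was not tested. The related regulatory light chain genes MYL12A and MYL12B were counted throughout, at 204 and 168 CPM in untreated GIMEN and 133 and 172 CPM in untreated SK-N-AS.

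TAGLN, an early marker of smooth muscle and of myofibroblasts, fell in GIMEN to the level of untreated SK-N-AS. It had 160, 165 and 178 CPM in untreated GIMEN and 4.05, 3.30 and 2.70 at D30. The log2 fold change was -5.66 (SE 0.11, adjusted p = 6.93e-12), a 50.6-fold lower level, and untreated SK-N-AS had 2.94, 4.50, 2.63 and 3.33 CPM, which overlapped with D30. PCSK7, a protease gene opposite 11.4% of TAGLN exon bases, had 62.3 CPM in untreated GIMEN and 46.4 at D30.

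In SK-N-AS, TAGLN was the 1 gene of the 7 tested that was not called lower at S2D30. It had 4.26, 7.58, 4.94 and 4.92 CPM at S1D4, 4.52, 4.94, 7.20 and 3.99 at S2D4, and 4.78, 4.50, 4.49 and 4.48 at S2D30. It passed the test as higher at S1D4 (log2 fold change 0.67, SE 0.23, adjusted p = 0.0258) and S2D4 (0.59, SE 0.23, adjusted p = 0.0316), and at S2D30 it had 0.41 (SE 0.23, adjusted p = 0.115). The libraries overlapped with untreated at each step. The S1D4 call rested on single libraries, with adjusted p = 0.0586, 0.0774 and 0.111 without untreated replicate 1, untreated replicate 3 or S1D4 replicate 2. The S2D4 call was likewise lost without untreated replicate 1 (0.0623), untreated replicate 3 (0.0907) or S2D4 replicate 3 (0.147). It was also lost with upper-quartile scaling (adjusted p = 0.0606) and in a model of the 8 compared libraries alone (0.0713). Without untreated replicate 2, the S2D30 change was 0.58 with adjusted p = 0.0355.

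The calponins CNN1 and CNN2 both fell in GIMEN. CNN1, the calponin of differentiated smooth muscle, had 20.5, 19.1 and 21.8 CPM untreated and 7.05, 5.27 and 5.46 at D30 (log2 fold change -1.81, SE 0.13, adjusted p = 2.15e-07). In SK-N-AS it had 1 to 36 counts per library and failed the filter on low counts. Its values there were 0.890, 1.14, 0.334 and 0.244 CPM untreated, 0.0422 to 0.241 at S1D4, 0.0931 to 0.3295 at S2D4 and 0.154 to 0.307 at S2D30, and only the S1D4 libraries were all below the untreated ones. With no filter the log2 change against untreated was -2.29 at S1D4 (adjusted p = 0.00655), -1.78 at S2D4 (adjusted p = 0.0154) and -1.51 at S2D30 (adjusted p = 0.0307).

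CNN2, the calponin found in many non-muscle cells, followed a dip and partial return in SK-N-AS. Its CPM was 81.6, 73.3, 66.0 and 49.0 untreated, 33.6, 29.9, 27.6 and 27.5 at S1D4, 18.2, 19.5, 20.3 and 20.7 at S2D4, and 39.6, 36.2, 37.3 and 37.3 at S2D30. No library of these 4 groups overlapped with another group. Log2 fold changes against untreated were -1.22 (SE 0.13, adjusted p = 2.25e-06), -1.81 (SE 0.13, adjusted p = 4.6e-09) and -0.88 (SE 0.13, adjusted p = 9.11e-06) in that order. Between S2D4 and S2D30 it rose by 0.93 (SE 0.13, adjusted p = 1.53e-05). In GIMEN it had 290, 286 and 308 CPM untreated and 51.0, 54.8 and 46.8 at D30, a 5.90-fold lower level (log2 fold change -2.56, SE 0.07, adjusted p = 1.14e-10).

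CALD1, caldesmon, was the most counted of these genes in untreated GIMEN and fell there. It had 758, 756 and 764 CPM untreated and 68.0, 65.9 and 61.0 at D30, an 11.9-fold lower level (log2 fold change -3.57, SE 0.07, adjusted p = 6.33e-12). In SK-N-AS it also dipped and partly returned, but S2D30 overlapped with S1D4, whereas CNN2 at S2D30 lay above S1D4. CALD1 had 73.9, 70.3, 74.5 and 89.0 CPM untreated, 43.9, 43.4, 50.3 and 48.9 at S1D4, 35.1, 32.2, 34.2 and 31.5 at S2D4, and 44.1, 39.8, 41.8 and 43.5 at S2D30. The treated groups lay below untreated without overlap, at log2 fold changes of -0.75, -1.24 and -0.90 (SE 0.08 each, adjusted p = 3.29e-06, 1.97e-09 and 4.56e-08). From S2D4 to S2D30 it rose by 0.35 (SE 0.08, adjusted p = 0.00212).

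The tropomyosins TPM1 and TPM2 parted. TPM1 had 152, 141, 94.3 and 80.4 CPM in untreated SK-N-AS, 78.8, 76.8, 66.7 and 62.0 at S1D4, 37.95, 40.7, 38.8 and 59.5 at S2D4, and 34.4, 38.8, 37.97 and 32.2 at S2D30. Each of these 3 groups was below untreated without overlap, at log2 fold changes of -0.75 (SE 0.19, adjusted p = 0.0044), -1.44 (SE 0.19, adjusted p = 5.53e-06) and -1.75 (SE 0.19, adjusted p = 4.35e-07). From S2D4 to S2D30 the change was -0.31 (SE 0.19, adjusted p = 0.188). In GIMEN TPM1 had 475, 460 and 470 CPM untreated and 106.2, 87.3 and 94.9 at D30 (log2 fold change -2.31, SE 0.08, adjusted p = 3.67e-10).

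TPM2 departed from this course in both lines. In SK-N-AS it had 27.6, 40.5, 32.2 and 25.7 CPM untreated, 32.7, 43.2, 40.4 and 44.5 at S1D4 and 33.4, 33.7, 38.6 and 31.8 at S2D4, with overlap between all 3 groups. Against untreated the log2 change was 0.33 (95% interval 0.05 to 0.60, adjusted p = 0.0767) at S1D4 and 0.09 (95% interval -0.18 to 0.37, adjusted p = 0.589) at S2D4. At S2D30 it had 19.9, 16.02, 17.9 and 20.8 CPM, below every other SK-N-AS library, with a log2 change of -0.79 (SE 0.14, adjusted p = 1.11e-04). The S1D4 change passed the test without untreated replicate 2 (0.47, adjusted p = 0.01) or S1D4 replicate 1 (0.41, adjusted p = 0.0327), and had adjusted p = 0.05 with DESeq2.

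In GIMEN TPM2 had 49.98, 54.5 and 57.6 CPM untreated and 63.0, 63.4 and 61.4 at D30. The D30 libraries were all higher, by a log2 change of 0.19 (SE 0.07, adjusted p = 0.0282). That call was lost with no filter (adjusted p = 0.102), with DESeq2 (0.0929), and without untreated replicate 1 (0.157), untreated replicate 2 (0.0804) or D30 replicate 2 (0.0571).

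Counted over the set, the direction was mostly down, in comparisons where a large share of all genes also changed. At S1D4, 1 of the 7 genes tested was higher and 3 lower, where 17.6% of all 15810 genes tested were higher, 22.4% lower and 40.1% either. At S2D4, 1 of 7 was higher and 4 lower, against 30.9%, 32.2% and, for either, 63.1% of all genes. At S2D30, 0 of 7 were higher (1 of 7 with untreated replicate 2 left out) and 6 lower, against 33.8%, 36.5% and, for either, 70.3%. From S1D4 to S2D4, 0 of 7 were higher and 4 lower, against 28.3%, 26.8% and, for either, 55.1%. From S2D4 to S2D30, 2 of 7 were higher and 2 lower, against 24.4%, 26.9% and, for either, 51.3%. In GIMEN, 1 of 9 was higher and 7 lower, against 35.5%, 36% and, for either, 71.4% of 13517 genes, with ACTG2 among the 7. In either direction, 57.1%, 71.4%, 85.7%, 57.1% and 57.1% of the 7 genes were called in the SK-N-AS comparisons, in the order given. In GIMEN it was 88.9% of the 9. With so few genes tested, each of these is near the share of all genes called. The libraries of the compared groups did not overlap for 3 of 7 contractile genes at S1D4 (38.3% of all genes), 4 at S2D4 (51.2%), 6 at S2D30 (66.4%), 4 between S1D4 and S2D4 (49.5%), 4 between S2D4 and S2D30 (50.3%) and 8 of 9 in GIMEN (75.4%). ACTG2, which passed the filter through untreated GIMEN alone, is among the 8.

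The median log2 fold change of the contractile genes was -0.21 at S1D4, -1.24 at S2D4, -0.90 at S2D30 and -2.35 in GIMEN, while the median over all genes tested lay between -0.03 and 0.02 in these comparisons, where the scaling holds it near 0. Each median covers the genes that passed the filter, 7 in SK-N-AS and 9 in GIMEN. Where a log2 change of 1 or more in size was also required, 1, 4, 3 and 7 of these genes were lower, and 12.3%, 29%, 37% and 24.7% of all genes passed in either direction. With that limit, 0 of 7 passed between S2D4 and S2D30, where 19.7% of all genes did.

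**Figure D2:**
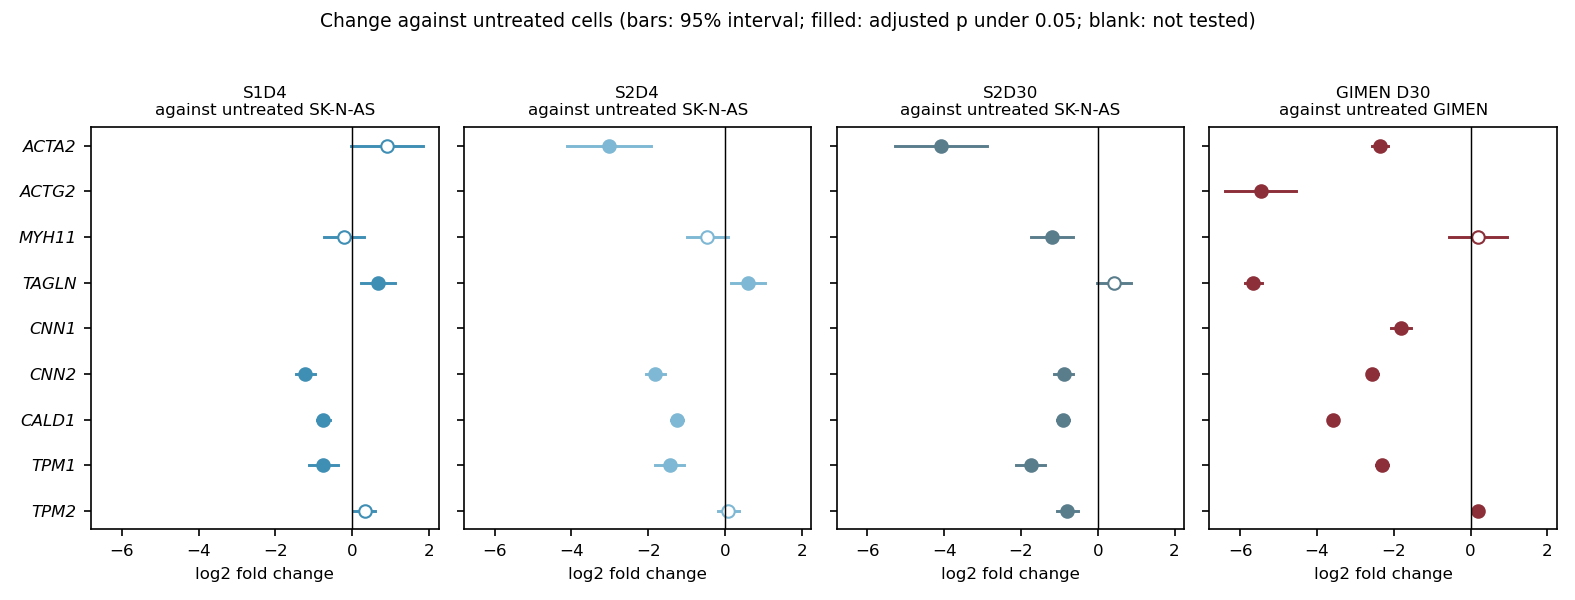
Log2 fold change against untreated cells of the same line for 9 contractile genes in 4 comparisons; points are estimates, bars 95% intervals, filled points have an adjusted p under 0.05 and a blank row was not tested. TAGLN lies at 0.41 to 0.67 in the 3 SK-N-AS comparisons and at -5.66 in GIMEN, and TPM2 and MYH11 lie at 0.19 in GIMEN.

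Before treatment the lines already differed. In untreated GIMEN against untreated SK-N-AS, 8 of 9 contractile genes were higher and 0 lower, where 34.4% of 15101 genes were higher, 39.2% lower and 73.6% either. With a log2 difference of 1 or more in size also required, 7 of 9 were higher, without TPM2, and 42.3% of all genes passed in either direction. CNN1 and ACTG2 passed the filter here through GIMEN. Log2 differences ran from 0.77 for TPM2 (SE 0.15, adjusted p = 0.00119) through 1.99 for TPM1, 2.11 for CNN2, 2.87 for ACTA2, 3.29 for CALD1 and 4.94 for CNN1 to 5.63 for TAGLN (SE 0.16, adjusted p = 2.99e-09), besides the bound for ACTG2. For each of these 8 the libraries of the lines did not overlap, as for 74.9% of all genes. MYH11 was the exception at -0.63 (SE 0.31, adjusted p = 0.0943), and without untreated GIMEN replicate 1 it was lower in GIMEN, at -1.02 (adjusted p = 0.0208). Without untreated GIMEN replicate 1, the count of genes lower was therefore 1. The lines grew in different media, so line and medium cannot be told apart.

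Ordered over the 6 groups, untreated GIMEN stood first and clear of the next group for ACTA2, ACTG2, TAGLN, CNN1, CNN2, TPM1 and CALD1. The runner-up was untreated SK-N-AS for CNN2, TPM1 and CALD1, followed by GIMEN at D30, and only for CALD1 did these 2 groups not overlap. For ACTA2, S1D4, GIMEN D30 and untreated SK-N-AS overlapped in the middle, and S2D4 and S2D30 were each lower without overlap. TPM2 had another order, with GIMEN D30 first, untreated GIMEN next and S2D30 last, each clear of its neighbour. For MYH11 no neighbouring groups were clear of each other.

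The 30-day change differed between the lines for several of these genes, in both directions. Tested as an interaction over the 14 untreated and 30-day libraries, 3 of 9 genes were higher in GIMEN minus SK-N-AS and 4 lower, against 25.2%, 24.5% and, for either, 49.7% of 16246 genes. With a difference of 1 or more in size also required, 2 were higher, without TPM2, and 4 lower, where 26.1% of all genes passed. The log2 difference was -6.07 for TAGLN (SE 0.21, adjusted p = 1.96e-12), -2.66 for CALD1 (SE 0.12, adjusted p = 2.57e-11) and -1.66 for CNN2 (SE 0.19, adjusted p = 1.93e-06). ACTG2 was also called, but it passed the filter through untreated GIMEN alone and both of its SK-N-AS groups were at the floor, so its difference has no size.

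The other 3 called genes had a positive difference. ACTA2 fell less in GIMEN, by a log2 difference of 1.75 (SE 0.54, adjusted p = 0.0119), and TPM2 (0.99, SE 0.19, adjusted p = 3.46e-04) and MYH11 (1.4, SE 0.48, adjusted p = 0.0212) fell in SK-N-AS and had 0.19 in GIMEN. The ACTA2 difference had adjusted p = 0.0718 in a model of all 22 libraries. That of MYH11 was lost without GIMEN untreated replicate 2 (1.19, adjusted p = 0.0645), untreated replicate 3 (1.26, adjusted p = 0.057) or D30 replicate 3 (1.07, adjusted p = 0.0865).

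Differences did not pass for TPM1 (-0.55, 95% interval -1.03 to -0.06, adjusted p = 0.0763) and CNN1 (-0.26, 95% interval -1.39 to 0.87, adjusted p = 0.78). CNN1 passed the filter here through GIMEN. In SK-N-AS it had 7 to 36 counts per untreated library and 3 to 7 at S2D30, so its difference is poorly measured. The TPM1 difference passed with no filter (adjusted p = 0.0369) and without untreated SK-N-AS replicate 1 (-0.71, adjusted p = 0.0101) or 2 (-0.64, adjusted p = 0.0467). Doses were lower in GIMEN (2.5 against 5 µM PP121 and 10 against 100 nM bufalin), its medium was different and SK-N-AS had first spent 4 days in PP121 alone, so line and treatment cannot be told apart in these differences.

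**Figure D3:**
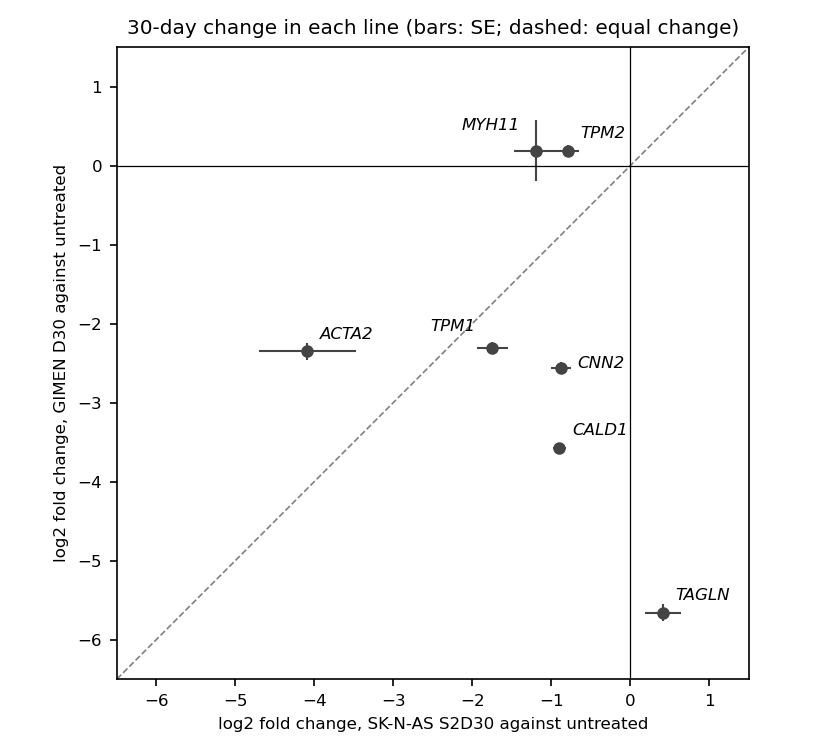
Log2 fold change after 30 days in GIMEN (D30, vertical axis) against SK-N-AS (S2D30, horizontal axis) for the 7 contractile genes tested in both lines; bars are SE and the dashed line marks equal change. TAGLN lies far below the line at 0.41 and -5.66, CALD1 and CNN2 lie below it, and ACTA2, TPM2 and MYH11 lie above it.

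Within gene families, the shares of some contractile genes, given per length, were lower after treatment and others were higher or overlapped. ACTA2 was 0.583 ± 0.009% of actin in untreated GIMEN and 0.283 ± 0.041% at D30 (SD, n = 3), and 0.236 ± 0.111% in untreated SK-N-AS and 0.016 ± 0.004% at S2D30 (SD, n = 4). ACTB and ACTG1, the cytoplasmic actins, made up nearly all the rest, at 51.1% and 48.3% in untreated GIMEN. Among tropomyosins, TPM1 held 28.9 ± 0.71% in untreated GIMEN and 13.2 ± 0.77% at D30, and TPM2 held 3.09 ± 0.18% and 7.998 ± 0.40% (SD, n = 3). In SK-N-AS the TPM1 share went from 16.4 ± 3.02% untreated to 5.64 ± 0.21% at S2D30, while that of TPM4 went from 25.6 ± 0.96% to 42.0 ± 0.82% (SD, n = 4). TPM1 has a long union of exons, and with that length its share was 11.6% and 4.68% in GIMEN and 6.50% and 2.01% in SK-N-AS, lower in each group and with the same direction.

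CNN2 held 46.0 ± 0.77% of calponin in untreated GIMEN and 30.1 ± 1.46% at D30 (SD, n = 3). In SK-N-AS it held 31.7 ± 3.21% untreated, 26.9 ± 0.78% at S1D4, 21.0 ± 1.34% at S2D4 and 38.8 ± 2.16% at S2D30 (SD, n = 4). CNN3, the acidic calponin of non-muscle cells, held most of the remainder, and CNN1 held 4.195 ± 0.20% in untreated GIMEN and 4.60 ± 0.69% at D30 (SD, n = 3), shares whose ranges overlapped. No test was made on shares.

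**Figure D4:**
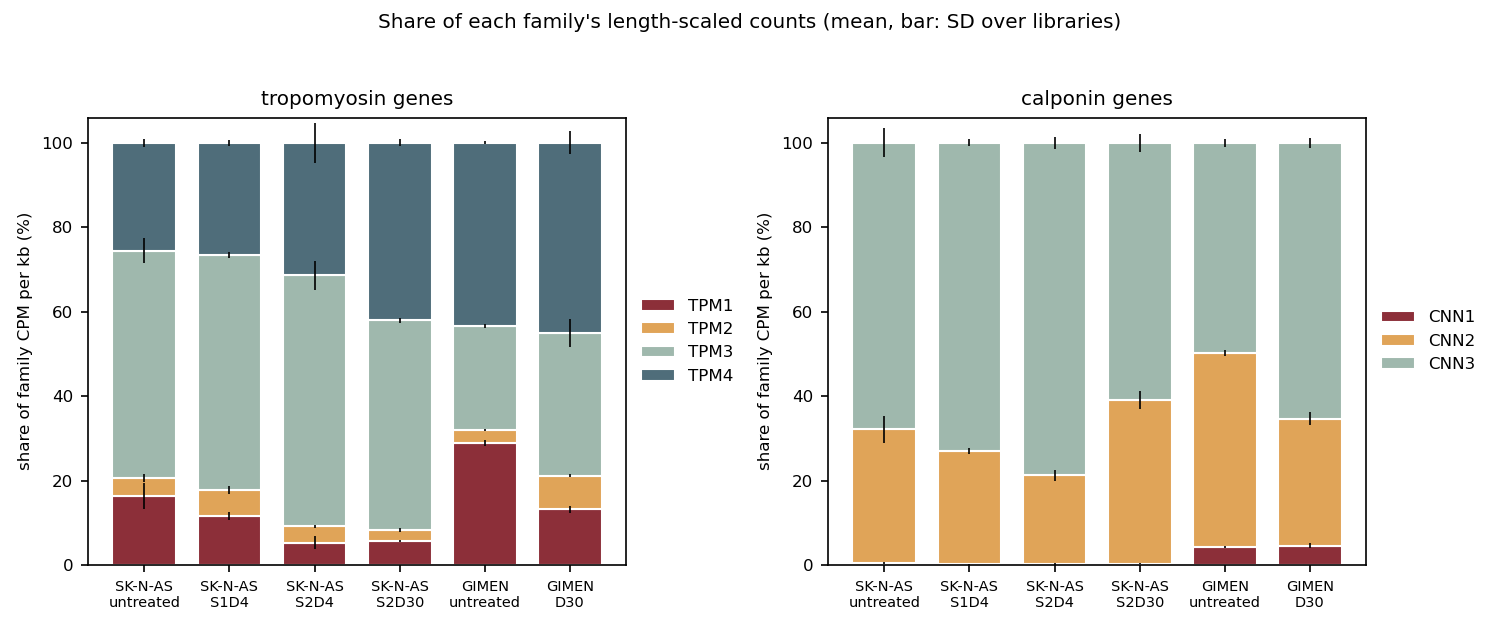
Mean share of each tropomyosin gene (left) and calponin gene (right) in the length-scaled CPM of its family, in percent, for the 6 groups; bars are stacked to 100% and error bars are the SD over libraries (n = 4 for SK-N-AS, n = 3 for GIMEN). The TPM1 share is 28.9% in untreated GIMEN and 13.2% at D30 and that of CNN2 is 21.0% at S2D4 and 38.8% at S2D30.

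SRF itself rose in SK-N-AS at S2D4 and S2D30 and fell in GIMEN. It had 60.9 ± 4.42 CPM untreated, 60.2 ± 8.61 at S1D4, 112 ± 20.3 at S2D4 and 113 ± 2.60 at S2D30 (SD, n = 4), and rose at S2D4 (log2 fold change 0.84, SE 0.12, adjusted p = 8.98e-06) and S2D30 (0.85, SE 0.12, adjusted p = 5.35e-06). In GIMEN it fell from 96.4 ± 1.97 to 66.3 ± 6.75 CPM (SD, n = 3), by 0.57 on the log2 scale (SE 0.07, adjusted p = 2.77e-05). MRTFA, an actin-sensing SRF cofactor, fell at S2D30 (-0.56, SE 0.09, adjusted p = 4.6e-05) and in GIMEN (-0.63, SE 0.07, adjusted p = 6.19e-06). MRTFB, its relative, rose at S2D30 (0.73, SE 0.21, adjusted p = 0.00513) and had -0.02 in GIMEN (adjusted p = 0.787). MYOCD, the cofactor specific to smooth and cardiac muscle, had at most 3 counts in every library. The genes named from each list below are those with the largest rise or fall among genes with a mean of at least 10 CPM. For all lists, the shares of all genes called in either direction were 40.1% at S1D4, 63.1% at S2D4, 70.3% at S2D30 and 71.4% in GIMEN. Of the 7 genes of SRF and its cofactors, 6 were tested. None was called at S1D4 (1 had an unadjusted p under 0.05), 4 were higher and 0 lower at S2D4, 5 and 1 at S2D30, and 1 and 3 in GIMEN. The largest rises were ELK1 at S2D4 (1.43, SE 0.18) and ELK4 at S2D30 (1.53, SE 0.12) and in GIMEN (0.43, SE 0.07). Both are ternary complex factors, which join SRF at genes induced by growth factors. At S2D4, ELK1 had 203 to 422 CPM with a median of 209, so 1 high library raised its mean.

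Of 23 actin cytoskeleton and focal adhesion genes, all tested, 1 was higher and 6 lower at S1D4, 12 and 5 at S2D4, 9 and 7 at S2D30, and 2 and 17 in GIMEN. The 7 calls at S1D4 are a smaller share than the 40.1% of all genes, and 36% of all genes were lower in GIMEN. FLNA, the filamin that cross-links actin, rose from 1027 to 2545 CPM at S2D4 and 4040 at S2D30 (log2 fold change 1.94, SE 0.11, adjusted p = 1.17e-10). FLNC, the muscle filamin, was the largest faller at S1D4 (-1.34, SE 0.22) and S2D4 (-1.35, SE 0.22), and in GIMEN, where it went from 1195 to 356 CPM (-1.78, SE 0.09). ZYX, zyxin, rose at S1D4 (0.59, SE 0.10), CNN3 fell at S2D30 (-1.31, SE 0.11) and FHL1, a LIM protein of muscle, rose in GIMEN (1.73, SE 0.13).

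Of 11 other smooth muscle genes, none was higher in SK-N-AS against untreated cells. Against untreated, 4, 5 and 3 of the 9 tested were lower at S1D4, S2D4 and S2D30, where 22.4%, 32.2% and 36.5% of all genes were lower. SYNPO2, an actin-bundling protein of the Z-disc, was the largest faller each time, from 390 CPM untreated to 110, 14.3 and 19.0 (log2 fold changes -1.85, -4.80 and -4.40). In GIMEN 3 of 8 were higher and 5 lower, with NEXN, nexilin, falling from 33.1 to 5.02 CPM (-2.75, SE 0.11) and SYNM, synemin, rising by 0.24 (SE 0.07, adjusted p = 0.00851).

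Of 16 genes of myosin regulation, 3 were higher and 4 lower at S1D4, 8 and 6 at S2D4, 9 and 5 at S2D30, and 2 and 8 of 14 tested in GIMEN. The share called at S1D4 is near the 40.1% of all genes. PPP1R14A, an inhibitor of myosin phosphatase, is below the level limit for naming and was singled out after its values were seen. It had 23.3 CPM untreated, 4.53 at S1D4, 0.417 at S2D4 and 0.519 at S2D30, with log2 changes of -2.38, -5.83 and -5.52, the largest falls of the list. PRKG1, a kinase that relaxes smooth muscle, was also below that limit and fell more than MYLK at S1D4 (-1.56) and S2D4 (-2.04). Its mean was 2.44 CPM untreated, 0.834 at S1D4 and 0.617 at S2D4, but 2.54 at S2D30, near the untreated level. MYLK, the kinase that switches smooth muscle myosin on, fell at S1D4 (-0.65, SE 0.18), S2D4 (-1.45, SE 0.19) and in GIMEN from 155 to 49.3 CPM (-1.68, SE 0.09). MYH10, a non-muscle myosin heavy chain, fell at S2D30 (-1.78, SE 0.09). RHOB rose at S1D4 (0.48, SE 0.17) and S2D30 (1.52, SE 0.17), RHOC rose at S2D4 (1.32, SE 0.14), and PPP1CB, a subunit of myosin phosphatase, rose in GIMEN (0.52, SE 0.07).

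Markers of other cell types moved beside these changes, and their part in them was not tested. Of 8 pericyte markers, 0 were higher and 7 lower at S2D30, where 36.5% of all genes were lower, and 5 of 5 tested were lower in GIMEN, where 36% were. Their CPM summed to between 2520 and 3112 in untreated SK-N-AS, 3051 to 3599 at S1D4, 1590 to 2757 at S2D4, 491 to 599 at S2D30, 2216 to 2251 in untreated GIMEN and 756 to 1288 at D30. At S1D4 they counted 1 higher (ANPEP, 1.61) and 2 lower, and at S2D4 2 higher and 4 lower, NOTCH3 falling most (-5.08). RGS5 made up most of the sum and fell by 1.09 in GIMEN. Of 19 striated muscle markers, 10 to 13 had at most 3 counts per library in each group and MYL1 and MYL2 were at 0 in every library. Their sum was 7.36 to 15.7 CPM in SK-N-AS and 38.9 to 51.9 in GIMEN. Of the 4 tested, 0, 0 and 0 were higher and 0, 2 and 2 lower in the 3 SK-N-AS comparisons with untreated, and 1 and 1 in GIMEN.

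Of 8 leukocyte markers, 4 were tested, with 1 higher and 1 lower at S1D4, 2 and 1 at S2D4, 3 and 1 at S2D30, and 1 and 2 in GIMEN. Their sum was 78.8 to 216 CPM in SK-N-AS and 98.3 to 414 in GIMEN. PTPRC was 177 CPM in untreated SK-N-AS and 0.850 at S2D30, and CD68, a lysosomal protein gene also read in many non-immune cells, rose in each comparison, by 1.13, 2.75, 3.18 and 1.61. CD3E was at 0 in every SK-N-AS library. The mesenchymal list counted 3 higher and 3 lower at S1D4, 7 and 1 at S2D4, 7 and 1 at S2D30, and 2 and 5 in GIMEN. CD44 rose most at S2D30 (4.52) and in GIMEN (0.59), PRRX1 at S1D4 (2.38) and FOSL1 at S2D4 (3.39), while FN1 fell most in each SK-N-AS comparison (-5.02 at S2D30) and SNAI2 in GIMEN (-3.06). The adrenergic list counted 0 higher and 4, 7 and 8 lower in SK-N-AS, with DBH falling most at S1D4 (-2.40), and 1 higher and 2 lower of 5 tested in GIMEN, with GATA2 at -1.51.

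Among themselves the contractile genes did not form 1 profile over the 16 SK-N-AS libraries. As a description of log2 CPM in libraries that share their 4 groups, ACTA2 was most like TPM1 (Pearson's r = 0.815), CNN2 most like CALD1 (0.865), MYH11 most like ACTA2 (0.732) and TPM2 most like ACTA2 (0.655). TAGLN had 0.302 with TPM2 at best and -0.614 with CNN2 at the least. Against the mean profile of the 7 genes tested, ACTA2 had 0.917, TPM1 0.901, MYH11 0.842 and TAGLN -0.10. Each of these genes is itself part of that profile, which raises its value. Among 10111 other genes with a mean of at least 10 CPM, those closest to the mean profile were IFT122 (0.951), NAIP (0.95), HSPG2 (0.95), ZNF195 (0.95) and GEMIN7 (0.947).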

How the data were processed

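Total RNA was sequenced in 22 libraries as paired ends on an Illumina HiSeq X after DNase treatment, per the labels' protocols. The authors deposited raw counts per gene symbol, whole numbers with no normalization. The aligner, counting tool, genome build, annotation and use of strand are not given in the sources used here. Groups and replicate numbers came from the labels.

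The contractile genes, the other gene lists and the tests were chosen with earlier results of these data known. In R 4.3.3, edgeR 4.0.16 kept genes with filterByExpr (minimum count 10, minimum total 15), scaled libraries by TMM and tested counts with the quasi-likelihood F-test. P-values were adjusted by Benjamini-Hochberg over all genes of a model, with a threshold of 0.05. One model held the 16 SK-N-AS libraries, one the 6 GIMEN libraries, one the 14 untreated and 30-day libraries and one the 7 untreated libraries. SE was derived from the F statistic, and 95% intervals are normal intervals around the estimate. CPM levels used 1 TMM scaling of all 22 libraries. Levels per length used the median protein-coding transcript length in GENCODE release 29 (GRCh38), with all exon bases as an alternative. For likeness, log2 CPM was taken with prior count 2.

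Named genes were all 10 contractile genes. From each other list and each comparison with untreated cells, the called gene with the largest rise and the one with the largest fall were also named, given a mean of at least 10 CPM, and always SRF, MRTFA, MRTFB and MYOCD. The 5 genes most like the mean profile complete the rule, and some items it names are not reported here. ACTB, ACTG1, TPM4, MYL12A, MYL12B, FAS, PCSK7, NDE1, CD3E, MYL1 and MYL2 were named for context, and PPP1R14A and PRKG1 after their values were seen. The models were tested on simulated data. The replicate number was not used as a block. Alternatives were other scalings, filters, a fold threshold, DESeq2 1.42.0, a replicate block, smaller and larger models and leaving out each library.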

Additional observations from a re-analysis of the deposited data

Results flagged for a closer look

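The 30-day change differed between the lines for 6 contractile genes, by the interaction test on the difference itself. In log2 units of GIMEN minus SK-N-AS it was 1.75 for ACTA2, 0.99 for TPM2, 1.4 for MYH11, -1.66 for CNN2, -2.66 for CALD1 and -6.07 for TAGLN. ACTG2 was also called, at a fitted -4.94, but SK-N-AS was at the floor in both groups and the gene passed the filter through untreated GIMEN alone, so this value is no measure of a difference. Without S2D30 replicate 1 or 4 it had adjusted p = 0.0681 or 0.233.

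Among 36 groups of 4 libraries, 4 held a library set far apart from the others by Dixon's ratio, where chance gives about 1 in 20. TPM1 was 59.5 CPM in S2D4 replicate 4, above 37.95 to 40.7 in the others. Without that library its S2D4 change was -1.62 in place of -1.44. TAGLN was 4.78 CPM in S2D30 replicate 1, above a narrow range of 4.48 to 4.50. ACTG2 was 0 CPM in S1D4 replicate 2 and 0.0543 CPM in S2D4 replicate 2, both at the floor, where the others had 2 counts and 0 counts each.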

How the results depend on the processing

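Of the counts of contractile genes called, most kept their value under other scalings, filters, models and DESeq2, and leaving out a library moved no SK-N-AS count of lower genes except from S2D4 to S2D30. With a log2 change of 1 or more in size also required, the counts at S1D4 were 0 higher and 1 lower, S2D4 had 0 higher, S2D30 3 lower, S2D4 against S1D4 1 lower, S2D30 against S2D4 0 higher and 0 lower, GIMEN 0 higher, the interaction 2 higher and the untreated lines 7 higher. The fold limit took all genes called from 6332 to 1942 at S1D4, 9976 to 4577 at S2D4, 11107 to 5845 at S2D30, 8712 to 3425 from S1D4 to S2D4, 8111 to 3109 from S2D4 to S2D30, 9653 to 3337 in GIMEN, 8069 to 4235 for the interaction and 11119 to 6393 between untreated lines. S2D4 had 0 higher with upper-quartile factors or a model of the compared groups alone, and S1D4 had 2 higher with DESeq2 or the term for replicates 3 and 4, which was defined from the values of these genes and is no independent test. S2D30 against S2D4 had 1 lower with upper-quartile factors, no filter, DESeq2 or the replicate block. GIMEN had 0 higher with no filter or DESeq2. Deviations of same-numbered libraries from group means correlated at -0.106 to 0.312 in SK-N-AS and -0.0375 to 0.000875 in GIMEN, with 0.306, 0.277, 0.0325 and 0.312 for untreated against S1D4. Not every pair passed 0.1, so the numbers were not used to pair the samples. Whether untreated and S1D4 libraries of the same number share an origin was not tested. Libraries were best correlated with their own number in 6 of 24 SK-N-AS pairs (3 of 4 for untreated against S1D4) and 0 of 3 GIMEN pairs. The replicate block changed no call other than those of TPM1 between lines (-0.60, adjusted p = 0.0186) and MYH11 from S2D4 to S2D30 (-0.75, adjusted p = 0.053). Leaving out 1 library gave 0 to 2 higher at S1D4, 0 to 1 at S2D4, 0 to 1 at S2D30, 1 to 2 lower from S2D4 to S2D30, 0 to 1 higher in GIMEN, 2 to 3 higher and 3 to 5 lower for the interaction, and 0 to 1 lower between untreated lines. Values that were not called changed sign without 1 library: TAGLN from S1D4 to S2D4 (-0.287 to 0.12 over all omissions, 0.12 without S1D4 replicate 2 and 0.03 without S2D4 replicate 4) and from S2D4 to S2D30 (-0.29 to 0.026, the latter without S2D4 replicate 3), MYH11 in GIMEN (-0.14 to 0.58, with -0.02 without untreated replicate 2, -0.14 without D30 replicate 3) and CNN1 between lines (-0.57 to 0.058, the latter without untreated SK-N-AS replicate 4). The cause of these differences was not tested. Upper-quartile factors moved the median of all genes by -0.13 between untreated lines. Low counts left MYL9 untested and limit ACTG2, CNN1 and MYH11.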
